A study of Mus musculus with 2 samples.

Results

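B cells of the mouse liver were defined here as barcodes with at least 3 unique molecular identifiers (UMIs, counts of distinct RNA molecules) summed over Cd79a, Cd79b and Ms4a1, and with no UMI of Cd3e, Clec4f, Siglech or Stab2. Barcodes with fewer than 200 genes, or with over 25% of their UMIs mitochondrial, were not considered. By this rule 1085 of 8172 barcodes were B cells, 958 of 5446 in the pIVCL library and 127 of 2726 in the Control library. Cd79a and Cd79b encode the signalling chains of the B cell receptor and Ms4a1 encodes the surface protein CD20. The excluded genes mark T cells (Cd3e), Kupffer cells (Clec4f), plasmacytoid dendritic cells (Siglech) and sinusoidal endothelial cells (Stab2). The members were thus chosen by the measured UMIs of these 7 genes, whose levels are described and support nothing. Within the B cells, barcodes with at least 1 UMI of Ighd or Fcer2a were compared with barcodes that had none.

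Each library was a droplet 3′ single-cell library from a mixed suspension of hepatocytes and non-parenchymal cells of C57BL/6 liver, aimed at a capture of 12000 cells. The pIVCL group is labelled for partial inferior vena cava ligation, an operation that narrows the large vein into which the liver drains and is used to raise portal pressure. Ligation is described as begun at 8 to 10 weeks of age and kept for 6 weeks. The Control group is labelled healthy, but the ligation text is attached to both samples, and a sham operation and the number of animals per library are not given in the sources used here. Each group held 1 library, so no difference below has a replicate check, a test or a standard error. The intervals are 95% intervals that cover counting error only, exact Poisson for levels and exact binomial for shares and ratios, and they compare these libraries, not the conditions.

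B cells carry a surface immunoglobulin of heavy and light chains, signal through Cd79a and Cd79b, and present antigen on MHC class II. Most mature B cells of spleen, lymph node and blood are follicular cells, which recirculate and carry IgM, IgD (heavy chain gene Ighd) and the low-affinity IgE receptor CD23 (Fcer2a). Marginal zone, B-1 and memory B cells carry little IgD or CD23, and plasma cells secrete antibody with the help of the joining chain Jchain. In the liver, B cells lie in the sinusoids and portal tracts, and blood in the vessels carries circulating ones. Liver-resident and circulating B cells cannot be told apart in these files.

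The depth of the B cells differed between the libraries. The pIVCL B cells had a median of 1874.5 UMIs and 950 genes per barcode, with a range of 550 to 43204 UMIs. The Control B cells had a median of 3283 UMIs and 1335 genes, with a range of 873 to 28712 UMIs. All kept barcodes followed the same order, with medians of 2005 and 5268 UMIs. Median mitochondrial shares of the B cells were 6.21% and 6.10%. The libraries shared 13 barcode sequences, of which 1 was a pIVCL B cell and 0 were Control B cells. The exclusion genes took out 45 pIVCL and 15 Control barcodes that otherwise met the rule, with a Clec4f UMI in 30 and 8 and a Stab2 UMI in 16 and 8 of them.

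By depth, 6 pIVCL barcodes and 1 Control barcode stood apart, each above 10000 UMIs. They held 7.42% of all pIVCL and 6.25% of all Control B cell UMIs. In 4 of the pIVCL barcodes hepatocyte transcripts made up 11.4% to 17.0% of the UMIs, and these 4 carried only 3 or 4 UMIs of the rule genes. Another pIVCL barcode had 3 rule UMIs beside 17 UMIs of Nkg7, a gene of cytotoxic lymphocytes. The last pIVCL barcode was rich in plasma cell transcripts, with 884 Jchain, 2320 Igha and 5965 Igkc UMIs. The Control barcode was of the same kind, with 2711 Jchain, 3879 Igha and 13118 Igkc UMIs. Some of the list medians below are also given without these barcodes.

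**Figure D1:**
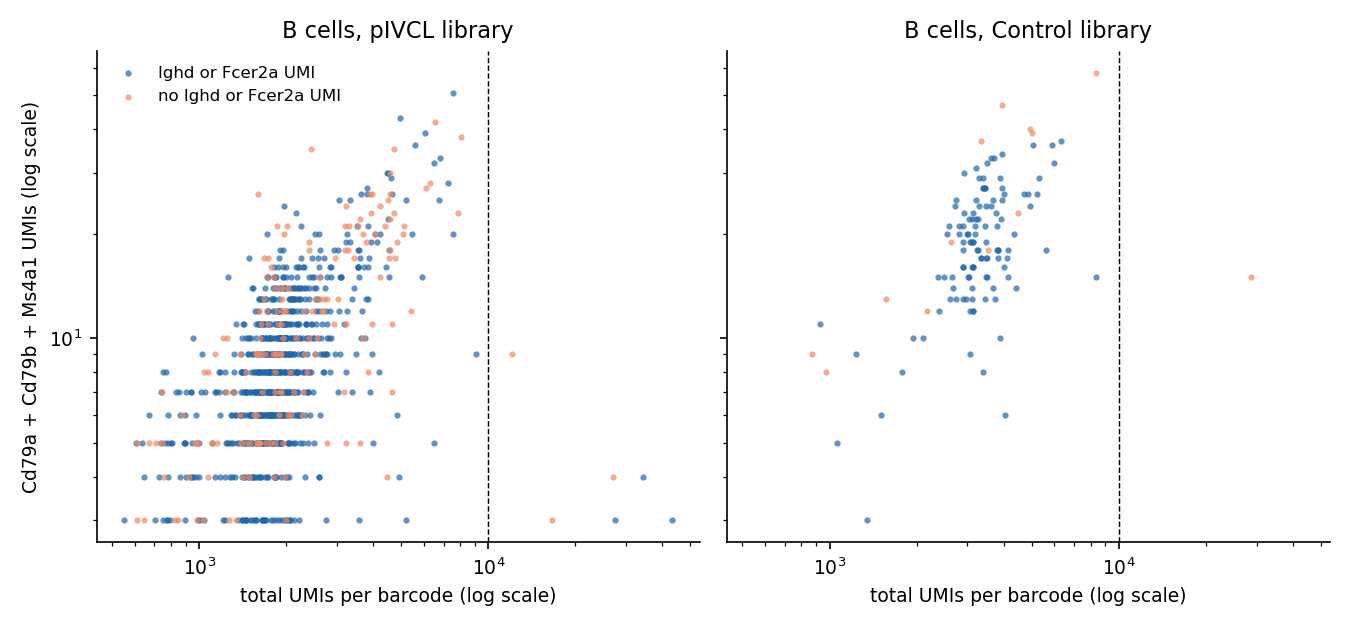
Total UMIs per barcode (x axis, log scale) against the summed UMIs of Cd79a, Cd79b and Ms4a1 (y axis, log scale) for 958 pIVCL (left) and 127 Control (right) B cells, with each point 1 barcode coloured by whether it held an Ighd or Fcer2a UMI. The dashed line marks 10000 UMIs: 6 pIVCL barcodes and 1 Control barcode lie to its right, and most Control B cells sit at higher depth and rule counts than the pIVCL ones.

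The number of rule UMIs placed few Control barcodes near the threshold and more pIVCL barcodes. Among barcodes without the exclusion genes, 46 pIVCL barcodes had 2 rule UMIs, just outside the rule, and 57 had 3, just inside it. In Control these numbers were 4 and 1. Ebf1, a transcription factor that specifies the B lineage, had a UMI in 58.7% of the pIVCL barcodes just outside and 82.5% of those just inside. Hepatocyte transcripts made up 8.03% and 7.30% of the UMIs of the same barcodes, against 1.21% in the 62 pIVCL barcodes with 20 or more rule UMIs.

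B cells made up 17.6% of the kept pIVCL barcodes (958 of 5446, 16.6% to 18.6%) and 4.66% of the kept Control barcodes (127 of 2726, 3.90% to 5.52%). The share was 3.78-fold higher in pIVCL (3.13 to 4.58). Because the rule needs 3 UMIs and the libraries differ in depth, every kept barcode was also thinned at random to 500 UMIs before the rule was applied. This gave 407 pIVCL (7.47%) and 82 Control (3.01%) B cells, a ratio of 2.48 (1.96 to 3.19). Over barcodes of 1000 to 3000 UMIs alone, the ratio was 5.19 (3.67 to 7.60), with 772 and 33 B cells. The size of the ratio thus moved with depth, and it was above 1 in each of these settings.

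With all UMIs, the same order was seen against other immune cells of the suspension. T cells (at least 2 UMIs of Cd3d, Cd3e and Cd3g, and none of the B cell rule genes) numbered 275 in pIVCL and 199 in Control, and B cells were 77.7% of B and T cells in pIVCL (75.3% to 80.0%) against 39.0% in Control (33.6% to 44.5%). Kupffer cells, the resident macrophages of the sinusoids (a Clec4f UMI and at least 3 UMIs of Clec4f, Vsig4 and C1qa), numbered 492 and 156. B cells were 66.1% of B and Kupffer cells in pIVCL (63.6% to 68.5%) and 44.9% in Control (39.0% to 50.9%). The T cell and Kupffer cell rules also need a minimum of UMIs, and these cells were shallower in pIVCL. Their median depths in pIVCL and Control were 2598 and 5214 UMIs for T cells, and 1044 and 2099 for Kupffer cells. These 2 shares are not given at equal depth. They are shares of what the suspension and the droplets recovered, and more B cells and fewer of the other cells cannot be told apart.

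The B cell label was checked against genes the rule did not use. Ebf1 had a UMI in 89.5% of pIVCL and 93.7% of Control B cells, and in 1 of 275 and 1 of 199 T cells. Cd74, the invariant chain that escorts MHC class II, had a UMI in 99.4% and 100% of B cells. Its UMIs were also present in 9.09% of pIVCL and 3.52% of Control T cells, at median depths of 2598 and 5214 UMIs. Summed over 12 genes, T and NK cell markers made up 0.00637% of the B cell UMIs in pIVCL, with 1 marker at 0, and 0.00218% in Control, with 7 at 0. Kupffer and macrophage markers (10 genes) made up 0.00610% and 0.00457%, with 1 and 3 at 0. On these values the label held for nearly all members, apart from the deep barcodes named above.

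The rule genes and the pair used for the split sit at GRCm38 positions chr7:24897381-24902197 (Cd79a), chr11:106311341-106314762 (Cd79b), chr19:11249675-11266241 (Ms4a1), chr12:113406604-113416324 (Ighd) and chr8:3681737-3694175 (Fcer2a). CPM below is the share of the summed B cell UMIs that a gene held, scaled to a fixed total. Cd79a was at 2081 CPM in pIVCL and 2710 in Control, Cd79b at 1393 and 2088, and Ms4a1 at 808 and 760. Ighd was at 671 CPM in pIVCL (637 to 706) and 679 in Control (606 to 759). Fcer2a was at 373 CPM (348 to 400) and 427 CPM (369 to 491). The intervals of Ighd and of Fcer2a overlapped between the libraries.

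Most B cells of both libraries had a UMI of at least 1 gene of the follicular pair. At least 1 Ighd or Fcer2a UMI was present in 786 of 958 pIVCL B cells (82.0%, 79.5% to 84.4%) and in 114 of 127 Control B cells (89.8%, 83.1% to 94.4%). An Ighd UMI was seen in 68.1% and 81.1%, a Fcer2a UMI in 51.7% and 70.1%, and both in 37.7% and 61.4%. In T cells, which should lack both genes, 3 of 275 pIVCL and 0 of 199 Control barcodes had such a UMI. The Control count of 0 has an upper bound of 1.84%.

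The lower pIVCL share did not hold after thinning to equal depth. With every B cell thinned to 500 UMIs, 44.9% of pIVCL (41.7% to 48.1%) and 41.7% of Control B cells (33.0% to 50.8%) kept an Ighd or Fcer2a UMI. At 1000 UMIs, after 61 pIVCL and 3 Control B cells under that depth were left out, the shares were 65.3% (62.1% to 68.4%) and 63.7% (54.6% to 72.2%). After thinning, a difference was not detectable. Over barcodes of 1000 to 3000 UMIs, pIVCL stayed lower, at 86.1% (83.5% to 88.5%) against 90.9% in Control (75.7% to 98.1%). Those intervals overlapped, as they did with all UMIs. Thinning lowered the share in both libraries, so a single barcode without the pair is not shown to lack IgD or CD23. Deep barcodes lay on both sides: pIVCL barcodes of 8038 and 7535 UMIs had 0 and 14 UMIs of the pair.

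**Figure D2:**
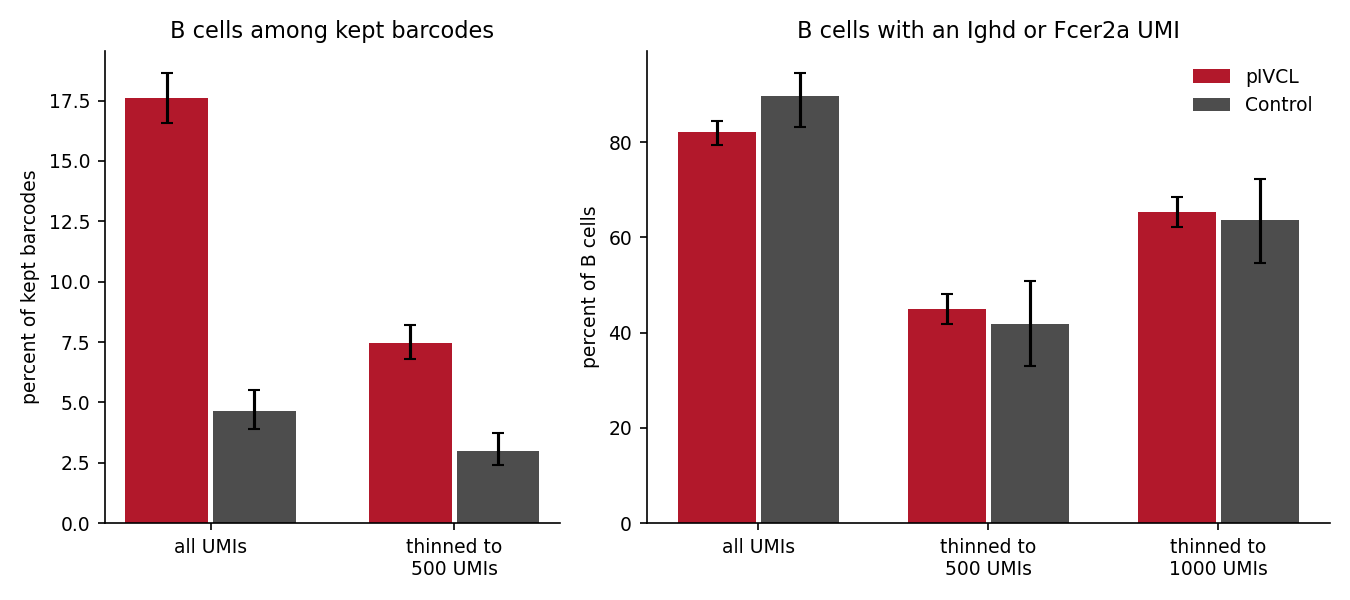
Percent of kept barcodes that were B cells (left) and percent of B cells with an Ighd or Fcer2a UMI (right), for all UMIs and after thinning, in 1 library per group, with 95% exact binomial intervals as error bars. The B cell share is higher in pIVCL with all UMIs (17.6% against 4.66%) and after thinning to 500 UMIs (7.47% against 3.01%). The intervals of the Ighd or Fcer2a shares overlap both with all UMIs and after thinning.

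Immunoglobulin transcripts showed 1 light chain leading in most barcodes. A barcode was called kappa-leading where Igkc exceeded the sum of Iglc1, Iglc2 and Iglc3 and reached 5 UMIs, and lambda-leading in the reverse case. Kappa led in 777 pIVCL B cells (81.1%) and 116 Control B cells (91.3%), and lambda in 115 (12.0%) and 10 (7.87%). Among assigned barcodes the lambda share was 12.9% in pIVCL (10.8% to 15.3%) and 7.94% in Control (3.87% to 14.1%), so the intervals overlapped. Another 66 pIVCL barcodes and 1 Control barcode reached neither call, at median depths of 1530.5 and 1349 UMIs.

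The chains were not fully exclusive by UMI. Kappa-leading barcodes held a lambda UMI in 90.2% of pIVCL and 97.4% of Control cases, with medians of 3 and 6 lambda UMIs. Below 10000 UMIs, the kappa-leading barcodes carried 24.0 lambda UMIs per 100 Igkc UMIs in pIVCL and 21.6 in Control. Lambda-leading barcodes had no Igkc UMI in 40.9% of pIVCL and 60.0% of Control cases. Iglc2 UMIs were present in 1 of 275 and 0 of 199 T cells, and Igkc UMIs in 7 and 2. Iglc2 and Iglc3 are near-identical copies, and how their reads were shared out is uncertain.

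**Figure D3:**
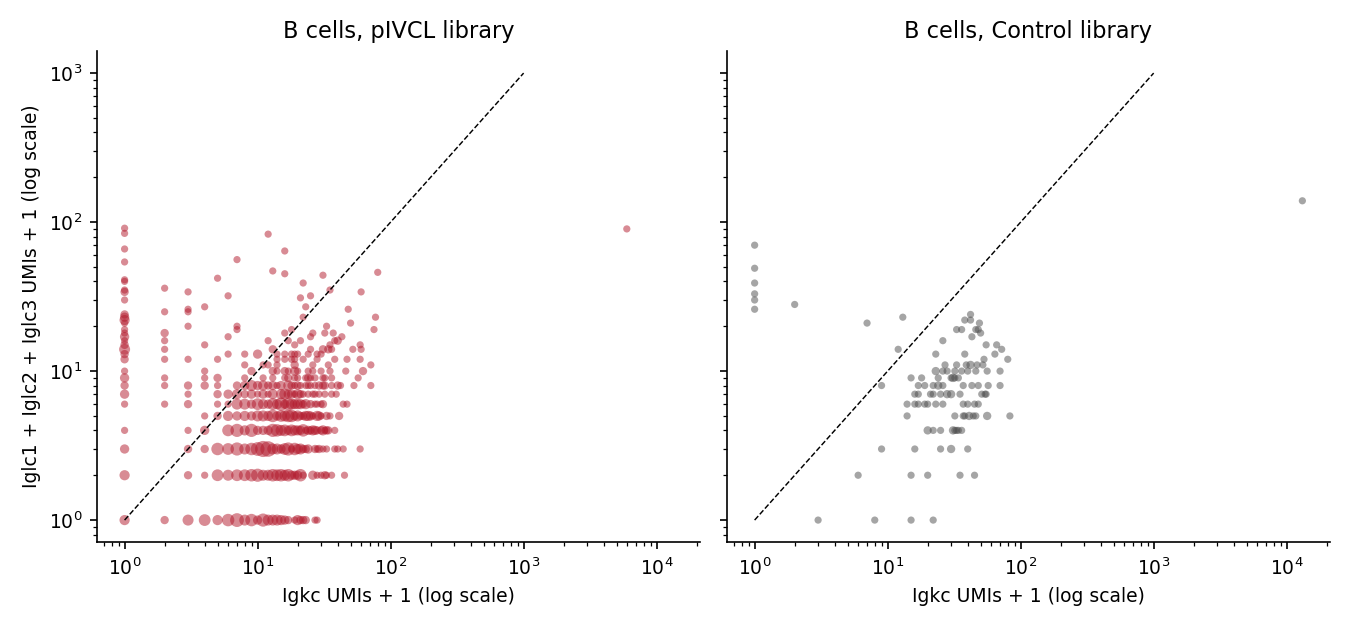
UMIs of Igkc (x axis) against the sum of Iglc1, Iglc2 and Iglc3 (y axis), each plus 1 on log scales, per B cell of the pIVCL (left) and Control (right) library, with larger points for several barcodes at the same values and a dashed line of equality. Most barcodes lie under the line (777 pIVCL and 116 Control kappa-leading), a smaller set at the left edge carries lambda with little or no Igkc, and the plasma-type barcodes lie far right with 5965 and 13118 Igkc UMIs.

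Ighm, the heavy chain of IgM, was higher in pIVCL B cells. It was at 3764 CPM in pIVCL (3682 to 3846) and 2523 CPM in Control (2380 to 2673), a ratio of 1.49 (1.40 to 1.59), and its log2 ratio was 0.57, or 0.59 without the deep barcodes. At 500 UMIs, 82.4% of pIVCL and 63.8% of Control B cells kept an Ighm UMI. Ighm UMIs were also present in 35.6% of pIVCL and 47.2% of Control T cells, and the log2 ratio of Ighm in T cells was 0.22 against 0.57 in B cells. Igkc pointed the other way, at 9116 CPM in pIVCL and 37047 in Control. A single barcode held 77.1% of the Control Igkc UMIs, and without barcodes above 10000 UMIs the log2 ratio of Igkc was -0.40 in place of -2.02. The median B cell had 12.5 Igkc UMIs in pIVCL and 30 in Control. These are counts not scaled for depth, and the median depths were 1874.5 and 3283 UMIs.

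Class-switched and plasma-type B cells were few. Outside the deep barcodes Igha left 24 UMIs in pIVCL and 1 in Control, and Ighg1, Ighg2c and Ighe had no UMI in either library. Ighg2b had 15 UMIs in 5 pIVCL and 25 UMIs in 3 Control B cells, and Ighg3 had 8 UMIs in 6 pIVCL B cells and 0 in Control. Any of these switched isotypes, Igha included, was seen in 23 pIVCL and 5 Control B cells. Jchain was seen in 5 pIVCL barcodes and 1 Control barcode, and only 1 B cell of each library, the plasma-type barcode, passed 10 UMIs. Among all kept barcodes, 3 in pIVCL and 1 in Control passed 10 Jchain UMIs, so the rule left some pIVCL barcodes of this kind out. The summed level of 15 plasma cell genes was 0.136% of pIVCL and 0.725% of Control B cell UMIs, and 0.0932% and 0.0806% without the deep barcodes. Early precursor genes, among them the surrogate light chain gene Vpreb1 (20 UMIs) and the DNA polymerase gene Dntt (18 UMIs), had UMIs in pIVCL and none in Control. At least 2 such genes were carried by 2 of 958 pIVCL and 0 of 127 Control barcodes. With so few Control B cells, the 0 does not show a difference between the libraries. At least 2 cell cycle genes were seen in 3 pIVCL barcodes and 1 Control barcode.

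For levels between the libraries, log2 ratios of pIVCL over Control were taken after adding 20 CPM to both sides, which understates low genes, and only genes with a mean of at least 100 CPM were compared. A gene is said to be past the fold at an absolute log2 ratio of 1 or more. Among 1271 genes compared, 78 (6.14%) were past the fold in the higher and 5 (0.393%) in the lower direction, and the median log2 ratio was 0.01. Without the barcodes above 10000 UMIs, the counts over 1322 genes were 47 (3.56%) and 3 (0.227%). In T cells, handled the same way, 40 of 1397 genes (2.86%) were higher and 11 (0.787%) lower past the fold. The counts describe sizes and are not counts of tested genes.

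The B cell identity programme had near-equal levels in both libraries. Of 20 pan-B genes outside the rule, 18 were compared, 5 were higher and 13 lower, none was past the fold, and the median log2 ratio was -0.10 (-0.02 without the deep barcodes). Ebf1 was at 1312 CPM in pIVCL (1264 to 1361) and 1345 CPM in Control (1241 to 1456). Pou2af1, a coactivator of octamer-binding factors at immunoglobulin genes, was the highest of the list at 278 and 152 CPM (log2 ratio 0.79). Fcmr, the Fc receptor for IgM, was the lowest at 599 and 869 CPM (-0.52). Transcription factors of the B lineage (14 of 20 compared) had a median log2 ratio of 0.02. The receptor signalling list includes the rule gene Cd79b, its lowest member (-0.58), so its median is not independent of the rule. Genes of B cell receptor signalling (13 of 20) had a median of -0.00. Of those 13, Ifitm3 was past the fold at 1.13, and it was at 0.59 without the deep barcodes. Follicular genes (13 of 15), a list that holds Ighd and Fcer2a, had a median of -0.02. Among them Satb1, a chromatin organiser, stood highest at 273 and 142 CPM (0.86), and Foxp1 lowest (-0.39).

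The upstream sequences of 2 pan-B genes are shown because they hold textbook B lineage motifs, for the octamer factors and for EBF1. They are the 250 bases before the RefSeq start (GRCm38.p6), written 5′ to 3′ on the gene's strand, with the motif match in capitals.
Vpreb3 (chr10:75948050-75948299, plus strand): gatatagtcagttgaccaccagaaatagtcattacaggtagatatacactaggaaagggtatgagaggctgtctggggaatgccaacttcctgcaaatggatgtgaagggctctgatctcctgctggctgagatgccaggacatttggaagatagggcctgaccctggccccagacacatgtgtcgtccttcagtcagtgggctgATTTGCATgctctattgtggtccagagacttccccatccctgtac
Cd22 (chr7:30879029-30879278, minus strand): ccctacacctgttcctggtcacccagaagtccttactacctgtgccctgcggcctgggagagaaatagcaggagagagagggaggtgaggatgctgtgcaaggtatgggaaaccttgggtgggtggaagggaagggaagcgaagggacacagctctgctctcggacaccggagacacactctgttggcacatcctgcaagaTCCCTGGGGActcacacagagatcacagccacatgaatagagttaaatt
The octamer ATGCAAAT, searched on both strands, lies in reverse orientation 37 bases before the Vpreb3 start and was found in 1.60% of 32851 promoters. The EBF palindrome lies 39 bases before the Cd22 start and was found in 0.779% of promoters. Of 15 pan-B genes with a promoter entry, 1 held each motif, counted per gene over all its entries and not per promoter. Both windows lie inside longer GENCODE models of these genes. Vpreb3, a chaperone-like partner of the light chain, was at 170 CPM in pIVCL and 189 in Control, and Cd22, an inhibitory receptor, was at 205 in both. Their levels did not differ beyond counting error.

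MHC class II genes were lower in pIVCL B cells. Of 13 listed genes, 11 were compared, 10 were lower, 1 was higher and none was past the fold, with a median log2 ratio of -0.42. H2-Eb1, a class II beta chain, was at 2205 CPM in pIVCL (2143 to 2268) and 3226 CPM in Control (3064 to 3395), a ratio of 0.683 (0.644 to 0.725). H2-Aa was at 2443 and 3335 CPM and H2-Ab1 at 2366 and 3094. Cd74 was at 10065 and 12050 CPM, a ratio of 0.835 (0.811 to 0.860). The chaperone gene H2-DMb2, which helps load peptides, was lowest at 280 and 425 CPM (log2 ratio -0.57). Ciita, the master activator of class II transcription, was at 239 and 242 CPM (-0.01).

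The exception was Cd83, which stabilises surface class II and is induced on activation, at 282 CPM in pIVCL and 161 CPM in Control (log2 ratio 0.74). As a share of all UMIs, the class II list made up a median of 2.07% per pIVCL B cell and 2.62% per Control B cell. The list median was -0.39 without the deep barcodes and -0.38 over barcodes of 1000 to 3000 UMIs. In T cells Cd74 had the opposite order, with a log2 ratio of 2.01, at 211 CPM in pIVCL and 37.4 CPM in Control. Kupffer cells had a median of -0.42 over the 6 class II genes compared there. Genes of the interferon-gamma response, several of which feed antigen presentation, had a median of -0.07 in B cells (6 of 20 compared).

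Immediate-early genes, which respond within minutes to receptor signals or handling stress, were mostly higher in pIVCL B cells. Of 22 listed genes 17 were compared, 14 were higher and 3 lower, and 3 were past the fold in the higher direction, with a median log2 ratio of 0.55. Without the deep barcodes 15 of 17 were higher and 4 past the fold, with a median of 0.57. Nr4a1, an orphan nuclear receptor and a widely used reporter of B cell receptor signalling, was at 202 CPM in pIVCL (183 to 222) and 56.6 CPM in Control (37.0 to 82.9), a ratio of 3.57 (2.40 to 5.52). Egr1, a zinc finger factor, was at 583 CPM (551 to 616) and 209 CPM (169 to 255), a ratio of 2.79 (2.27 to 3.47). Egr3, of the same family, was at 192 and 78.4 CPM, a ratio of 2.45 (1.74 to 3.54). The intervals of each of these 3 genes did not overlap between the libraries.

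Members of the list differed in direction. Fosb, an AP-1 subunit, was at 376 and 202 CPM (log2 ratio 0.83), and Jun at 492 and 324 CPM (0.57). Cd69, an early activation antigen that holds lymphocytes in tissue, was lower in pIVCL at 332 CPM (308 to 357) against 435 CPM (377 to 500). Fos was at 450 and 562 CPM (-0.31), but at 0.13 without the deep barcodes. Jund, also of AP-1, had a log2 ratio of -0.19. Atf3, a stress-induced factor, had 114 UMIs over 4.18% of pIVCL B cells and 0 in Control, at least 8.06-fold higher against a floor of 3 UMIs.

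Nr4a1 and Egr1 were also higher in pIVCL at equal depth. At 500 UMIs per barcode, Nr4a1 was seen in 8.87% of pIVCL and 0.787% of Control B cells, and Egr1 in 21.1% and 11.8%. Over barcodes of 1000 to 3000 UMIs the list median was 0.73, with 13 of 17 genes higher, and the log2 ratios of Nr4a1 and Egr1 were 1.52 and 1.16. T cells of the same libraries had a list median of 0.71 (12 of 13 genes higher), with Nr4a1 at 1.00 and Egr1 at 0.84. Kupffer cells had a median of -0.16 (6 of 13 higher). Egr3 had a log2 ratio of -0.04 in T cells against 1.11 in B cells, and Fosb 1.69 against 0.83. The part of cell handling in these levels was not tested. NF-kB feedback genes had a median of 0.21 in B cells (5 of 16 compared), with Nfkbid at 0.72 and Nfkbia at -0.41, and one of 0.65 in T cells.

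Heat shock genes, which encode protein-folding chaperones, were higher in pIVCL B cells. All 7 compared of 13 were higher, with a median log2 ratio of 0.51 and a range of 0.25 to 0.70, none past the fold, and with a median of 0.47 without the deep barcodes. Hspa8, the constitutive HSP70, was at 989 CPM in pIVCL (947 to 1032) and 688 CPM in Control (614 to 768). Hspd1, the mitochondrial HSP60, was highest at 225 and 131 CPM. In T cells the same 7 genes had a median of 0.06, and in Kupffer cells one of 0.18.

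The inducible HSP70 genes were under the level filter but were seen in pIVCL only. Hspa1a had 194 UMIs over 6.05% of pIVCL B cells and 0 in Control, at least 13.7-fold higher against the floor of 3 UMIs. Hspa1b had 113 UMIs over 4.91% of pIVCL B cells and 0 in Control, at least 7.99-fold higher. No single barcode held more than 5.67% of the UMIs of either gene. Both were also higher in pIVCL T cells, with Hspa1a at 47.6 and 3.56 CPM and Hspa1b at 61.8 and 0.890 CPM. The upstream sequences of the pair are shown because the genes are near-identical copies side by side on chromosome 17, so their separate counts are uncertain, and because they carry the heat shock element in capitals.
Hspa1a (chr17:34972157-34972406, minus strand): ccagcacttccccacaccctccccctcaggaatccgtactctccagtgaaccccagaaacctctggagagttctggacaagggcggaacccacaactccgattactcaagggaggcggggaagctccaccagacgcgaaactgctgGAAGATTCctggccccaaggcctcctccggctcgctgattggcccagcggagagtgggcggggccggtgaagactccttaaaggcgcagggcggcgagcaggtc
Hspa1b (chr17:34959239-34959488, minus strand): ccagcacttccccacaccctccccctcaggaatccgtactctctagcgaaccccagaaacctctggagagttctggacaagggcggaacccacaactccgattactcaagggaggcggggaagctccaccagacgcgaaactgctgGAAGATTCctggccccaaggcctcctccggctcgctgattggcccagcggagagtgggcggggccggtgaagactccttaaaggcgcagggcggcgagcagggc
These 250 bases before the RefSeq starts (GRCm38.p6) differ at 3 positions (98.8% identical). The heat shock element GAANNTTC, which reads the same on both strands, lies 96 bases before each start. It was found in 6.69% of 32851 promoters and for 6 of the 10 heat shock genes with an entry. The first value counts promoters and the second counts genes with a match in any entry. Some of these genes have 2 or 3 entries, so the values are not on the same footing. A match is a description of letters and does not show that a factor was bound.

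Hepatocyte transcripts made up more of the pIVCL B cell barcodes. All 12 listed genes were higher, 10 past the fold, with a median log2 ratio of 1.31, and they made up 3.07% of pIVCL and 1.37% of Control B cell UMIs. Without the deep barcodes 11 of 12 were higher, 3 past the fold, with a median of 0.89 and shares of 2.42% and 1.45%. T cells had shares of 1.76% and 1.15%, and Alb, the serum albumin gene, had a UMI in every T cell and every B cell of both libraries. Mup20, a major urinary protein gene, led all named genes at 431 CPM in pIVCL and 13.1 CPM in Control (log2 ratio 3.77). It was also at 157 and 9.79 CPM in T cells. The other 9 genes at the top by the naming rule were Gstm1 (2.44), Cyp2f2, Hpx, Cyp2c70, Cp, Cyp3a11, Hamp, Ambp and Rarres2 (1.84), which are transcripts abundant in hepatocytes. The neutrophil genes S100a8 and S100a9 behaved alike, with UMIs in 9.19% and 10.5% of pIVCL B cells and none in Control. Their UMIs were present in 9.09% and 16.7% of pIVCL T cells.

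At the low end most named genes rested on 1 barcode. Jchain (log2 ratio -3.78), Igha (-2.94), Slpi (-2.21) and Ly6c2 (-1.70) were each over 99% from the plasma-type barcode in Control and stood between 0.00 and 0.52 without barcodes above 10000 UMIs. Ecm1 (-2.83), Lyz2 (-1.47) and Dcn (-2.27) are transcripts of stellate cells or macrophages, and for each gene 1 Control barcode of at most 10000 UMIs held much of the count, at 96.2%, 97.1% and 82.1% of its UMIs. Slfn2 and Serpinb1a did not rest on 1 barcode. Slfn2, of the Schlafen family tied to lymphocyte quiescence, was at 194 CPM in pIVCL (176 to 213) and 427 CPM in Control (369 to 491), and no barcode held more than 4.08% of its UMIs. Serpinb1a, an inhibitor of serine proteases, was at 124 and 263 CPM. The log2 ratio of Slfn2 was -0.79 in T cells, and that of Serpinb1a was -0.14.

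To show genes of the B cells themselves, 710 genes were taken whose level in B cells was at least that of the other barcodes in both libraries, without barcodes above 10000 UMIs. This set was chosen after the values above were seen. It had 6 genes (0.845%) past the fold in the higher and 2 (0.282%) in the lower direction, with a median of -0.09. The 6 were Nr4a1 (1.55), Egr1 (1.39), S100a6 (1.33), Lars2 (1.21), Egr3 (1.13) and Fosb (1.02), and the 2 were Slfn2 (-1.04) and Serpinb1a (-1.01). Lars2, a mitochondrial leucyl-tRNA synthetase, was also higher in T cells (1.43). S100a6, a calcium-binding protein, was at 444 CPM in pIVCL and 168 CPM in Control but had a log2 ratio of -0.27 over barcodes of 1000 to 3000 UMIs. Its UMIs were in 10.9% of pIVCL and 8.66% of Control B cells, and 1 barcode held 53.2% of those in Control.

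**Figure D4:**
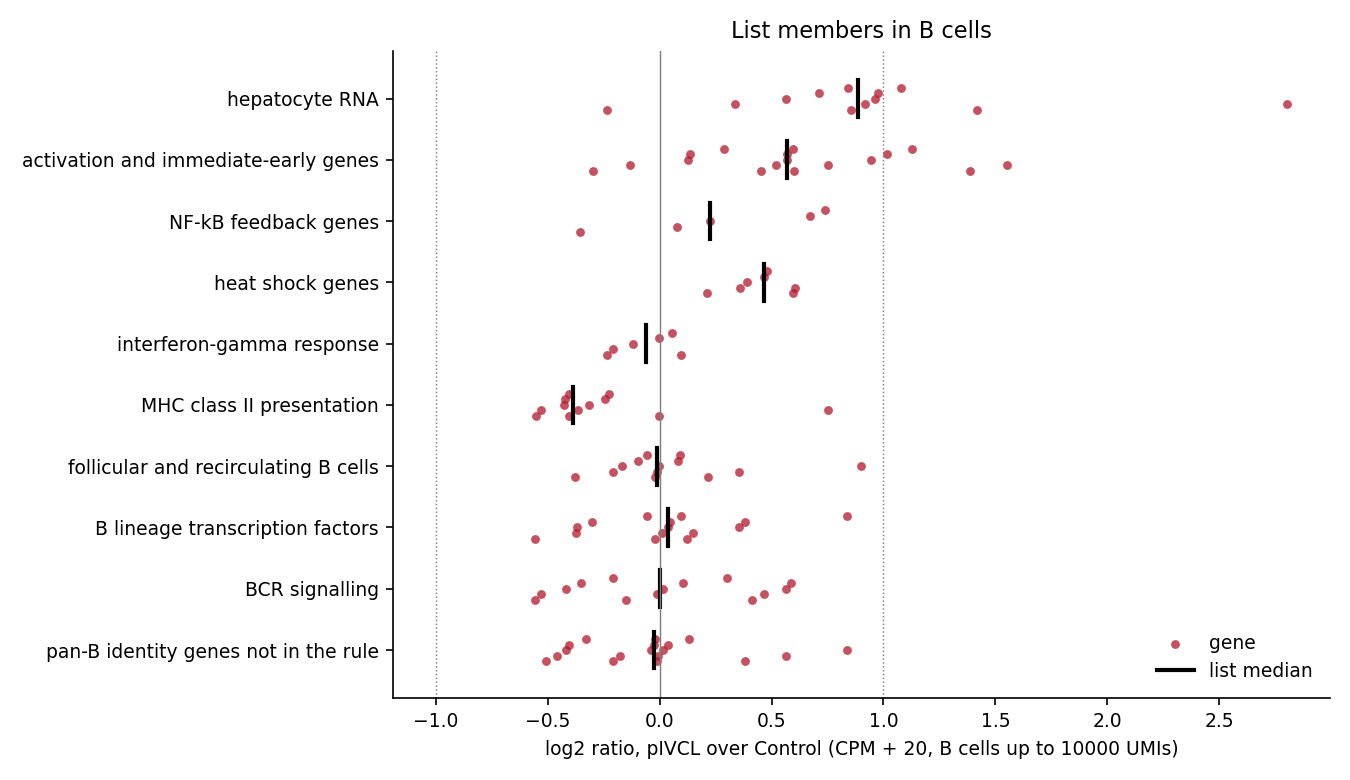
Log2 ratios of pIVCL over Control (x axis, CPM plus 20) for members of 10 gene lists in B cells up to 10000 UMIs, each point a gene with a mean of at least 100 CPM and each bar the list median, with dotted lines at -1 and 1. Identity, receptor signalling and follicular lists centre near 0, MHC class II lies below 0 apart from Cd83 (0.75), and the heat shock, immediate-early and hepatocyte lists lie mostly above 0.

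Within each library the 786 pIVCL and 114 Control barcodes with an Ighd or Fcer2a UMI were set against the 172 and 13 with neither gene, and are called barcodes with and without the pair. The groups had similar median depths, of 1860 and 1938 UMIs in pIVCL and 3253.5 and 3544 in Control. Their spread differed in pIVCL, where 665 of the 786 and 107 of the 172 had 1000 to 3000 UMIs. A larger share of the pIVCL barcodes without the pair lay above 3000 UMIs. Ighd and Fcer2a are left out here because they made the groups. In pIVCL, 8 of 1333 genes (0.6%) were past the fold higher in barcodes with the pair and 14 (1.05%) lower. In Control the counts were 136 of 1091 (12.5%) and 36 (3.3%), around a median log2 ratio of 0.37. With that median set to 0 the Control counts were 50 and 57, and with CPM taken without mitochondrial, ribosomal, immunoglobulin and hepatocyte genes they were 146 and 194. Without barcodes above 10000 UMIs, which in Control leaves out only the plasma-type barcode, they were 37 of 1323 (2.8%) and 73 (5.52%). In pIVCL, where all 6 deep barcodes were left out, they were 5 of 1341 (0.373%) and 10 (0.746%). The Control contrast rests on 12 or 13 barcodes on 1 side, and the pIVCL values carry the description.

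Barcodes with the pair were higher in follicular genes. Of 13 follicular genes other than the pair, 10 were compared in pIVCL, 8 were higher, 1 past the fold, with a median log2 ratio of 0.51. Without the deep barcodes 12 were compared and 8 were higher, with a median of 0.43. In Control 8 were compared, and all 8 were higher (9 of 9 without the deep barcode). Satb1 was at 310 CPM in pIVCL barcodes with the pair and 139 CPM in those without (log2 ratio 1.05). Ccr7, the receptor that guides lymphocytes into lymphoid tissue, was at 374 and 184 CPM. Cr2, the complement receptor CD21, was at 140 and 55.7 CPM in pIVCL, and in Control had 57 UMIs with the pair and 0 without.

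Other named genes at the high end were Neurl3, Egr3, Sorl1, Btla, Pxk and Slamf6, with the hepatocyte transcripts Uox and Sult2a8. Neurl3, an E3 ubiquitin ligase, was at 214 and 77.1 CPM in pIVCL (ratio interval 1.97 to 4.02) and 316 and 70.9 CPM in Control. Egr3 was at 221 and 83.5 CPM in pIVCL, and Btla, an inhibitory receptor of lymphocytes, at 153 and 60.0 CPM. All 11 MHC class II genes compared were higher with the pair in pIVCL, with a median of 0.39 (0.33 without the deep barcodes) and none past the fold. Ciita led them at 269 and 131 CPM (interval of the ratio 1.58 to 2.74).

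Barcodes without the pair were higher in the compared genes of the B-1 list. Of 15 genes of the B-1 list, 3 were compared in pIVCL (S100a6, Vim and Ahnak). All 3 were past the fold in the lower direction, as they were in Control. The other members were under the level filter, and their levels are not all given here. The list is not particular to B cells. It made up 0.204% of T cell UMIs in both libraries, against 0.109% of pIVCL and 0.0705% of Control B cell UMIs. S100a6 was at 1343 CPM without the pair and 197 CPM with it in pIVCL, and at 751 and 61.7 CPM in Control. Ahnak, a large scaffold protein, was at 266 and 75.4 CPM in pIVCL, and Vim, an intermediate filament, at 711 and 264 CPM. Crip1, a LIM domain protein, was at 1128 and 490 CPM. Under the level filter, Zbtb32, a transcription factor of memory B cells, had 37 UMIs in the 172 pIVCL barcodes without the pair and 7 in the 786 with it. Bhlhe41, a transcription factor needed by B-1a cells, had 21 and 7 UMIs.

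Of 15 marginal zone genes 3 were compared in pIVCL, and all 3 were lower with the pair, 1 past the fold. Without the deep barcodes 2 of 3 were lower, 1 past the fold, and Cr2 was past it in the higher direction (1.02). Of 15 memory and age-associated genes 2 were compared, both lower with the pair and neither past the fold. Plac8, of the marginal zone list, was at 839 CPM without the pair and 324 CPM with it in pIVCL barcodes up to 10000 UMIs. Iglc1 was at 1291 and 525 CPM. Atf3 had 77 of its 114 pIVCL UMIs in the barcodes without the pair. Ighm was at 4433 and 3580 CPM, so IgM transcripts were present on both sides.

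Igha, Jchain, Igkc and Txndc5, which also stood at the low end, were concentrated in the plasma-type barcodes. Without barcodes above 10000 UMIs, the pIVCL log2 ratio was 0.15 for Igkc (with all barcodes -1.47) and 0.12 for Txndc5, a protein disulfide isomerase. Mzb1, an endoplasmic reticulum cofactor of antibody assembly, stayed at -0.80 in pIVCL and -0.84 in Control without them.

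**Figure D5:**
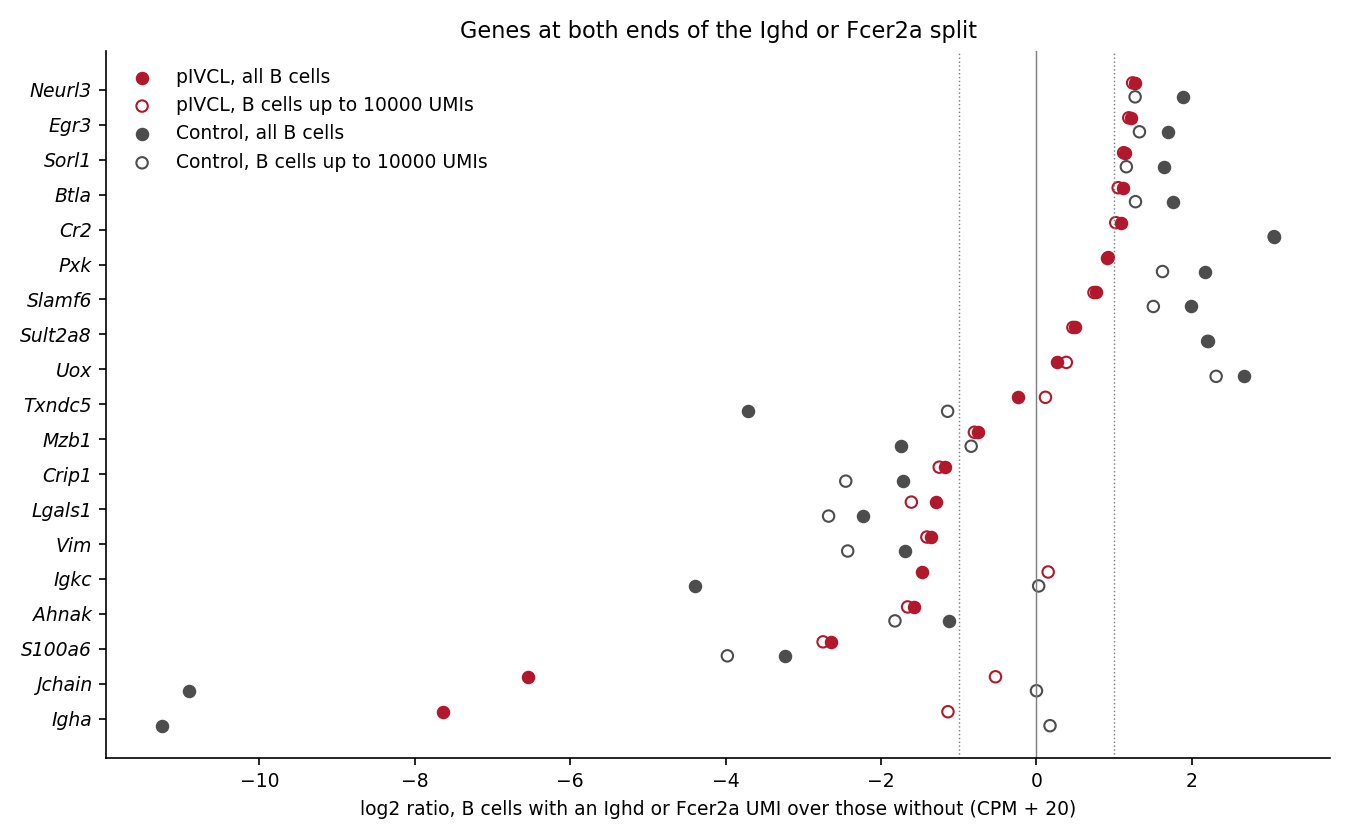
Log2 ratio (x axis, CPM plus 20) of B cells with an Ighd or Fcer2a UMI over those without, for named genes at both ends of the ranking, in pIVCL (red) and Control (grey), with filled points for all B cells and open points without barcodes above 10000 UMIs. S100a6, Ahnak, Vim and Crip1 lie below -1 in both libraries with and without these barcodes, while Igkc, Jchain and Igha move towards 0 once they are left out.

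The contrast was smaller within a window of depth. Over pIVCL barcodes of 1000 to 3000 UMIs (665 with the pair, 107 without), S100a6 had a log2 ratio of -1.93, but Ahnak had -0.72, Vim -0.41 and Lgals1, a galectin, 0.22. In that window 1 gene was past the fold in the higher direction and 2 in the lower. Egr3, Neurl3 and Cr2 had log2 ratios of 0.64, 0.61 and 0.54 there. Ahnak and Vim were thus past the fold over all pIVCL B cells and not within the window.

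At least 3 S100a6 UMIs were present in 62 pIVCL B cells (6.51%) and 5 Control B cells (3.97%), among barcodes up to 10000 UMIs. This cut was set after the values were seen, and the barcodes were deeper than the others, with medians of 4297.5 against 1838.5 UMIs in pIVCL. Zbtb32 was at 156 CPM in the 62 barcodes and 1.15 CPM in the other 890, and Bhlhe41 was at 82.0 and 3.46 CPM. Vim was at 1379 and 230 CPM, Ahnak at 544 and 59.9 CPM, and Plac8 at 1420 and 276 CPM. In the opposite direction Ighd was at 168 and 808 CPM, Fcer2a at 67.1 and 454 CPM, and Cr2 at 7.45 and 150 CPM. An Ighd or Fcer2a UMI was present in 33.9% of the 62 and 85.6% of the 890, and the 62 were the deeper group. Cd74 was at 10866 and 10852 CPM, but Ebf1 was lower in the 62, at 689 and 1526 CPM. Cd79a, a rule gene whose level supports nothing, was at 1897 and 2296 CPM. Nkg7 and Lyz2, genes of cytotoxic and myeloid cells, were at 14.9 and 67.1 CPM in the 62. In the 890 they were at 6.91 and 38.0 CPM. The 5 Control barcodes had the same order for Zbtb32 (206 and 0 CPM), Vim (2303 and 232 CPM) and Ighd (68.8 and 772 CPM). Their Ebf1 level was below that of the other 121, at 963 and 1469 CPM. Cd79a was at 2854 and 2866 CPM, and as a rule gene it does not bear on what these barcodes are. An Ighd or Fcer2a UMI was present in 60% of the 5 and 91.7% of the 121, and 5 barcodes give little precision. No type name is given to these barcodes, since they were drawn from the same cells and genes that describe them.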

How the data were processed

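The authors deposited UMI counts per gene and barcode, as whole numbers with no normalization per the file headers, for 1 pIVCL and 1 Control library. They held 7042 barcodes and 38154000 UMIs, and 3574 barcodes and 24637681 UMIs. Cell Ranger 3.0.2 and mm10 are named per the submitters' processing notes. No source used here gives the annotation release, and 30934 of 31053 genes (99.6%) matched GENCODE M21. Promoters came from RefSeq (GRCm38.p6).

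Kept barcodes had 200 genes or more and a mitochondrial share no higher than 25%. UMIs were summed over B cells, divided by their total and multiplied to CPM, and log2 ratios were taken after adding 20 CPM, for genes with a mean of at least 100 CPM. Named genes were the rule genes, the 10 highest and 10 lowest log2 ratios per comparison, and list members with the largest ratios or needed to describe a list. The ranking needed at least 30 UMIs and 100 CPM in the higher group and left out mitochondrial, ribosomal, variable-segment and unnamed genes, and genes at least 10 times higher in other barcodes. Some genes the rule selects are not reported here. The members and the 31 lists (413 symbols, all found) were chosen with earlier results of these data known. No doublet caller was run; the exclusion genes, and an alternative without barcodes carrying T, NK or myeloid marker UMIs, bear on doublets. PCR duplicates were collapsed by UMI, and intervals and floors (3 UMIs for a count of 0) cover counting error only. The code was checked on simulated data. Python 3.11.15, numpy 2.4.6, scipy 1.17.1, pandas 2.3.3 and matplotlib 3.10.9 were used. Alternatives varied the rule, depth, filter, added CPM and scaling.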

Additional observations from a re-analysis of the deposited data

Results flagged for a closer look

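Barcodes above the mitochondrial limit were not used, yet 12 of them in pIVCL and 2 in Control met the B cell UMI rule. The median log2 ratio of the glycolysis genes was 0.18 in B cells and -0.16 in T cells, with opposite signs in the same pair of libraries. Without barcodes above 10000 UMIs the B cell median was 0.03. The difference was not tested.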

How the results depend on the processing

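No paired analysis was possible because each group held 1 library, and for the same reason no library could be left out. The B cell share ratio of 3.78 was 5.19 over barcodes of 1000 to 3000 UMIs and 2.48 after thinning to 500 UMIs. Leaving out barcodes above 10000 UMIs and weighting each barcode equally were chosen after seeing the data. The 83 genes past the fold between the libraries became 52 with at least 5 rule UMIs, 130 with a mean of at least 50 CPM, 222 with no filter, 50 without barcodes above 10000 UMIs and 53 with equal weights. For Ighd or Fcer2a barcodes in pIVCL the 22 genes became 3 over 1000 to 3000 UMIs, 9 without barcodes with T, NK or myeloid marker UMIs, 10 with Ighd alone, 5 with Fcer2a alone, 34 with CPM computed without mitochondrial, ribosomal, immunoglobulin and hepatocyte genes, 38 at 50 CPM, 77 with no filter and 7 with equal weights. In Control the 172 became, in the same order up to the filter, 634, 278, 75, 37, 340, 426 and 1698, and 265 with no exclusion genes, 107 with the median set to 0, 610 after thinning to 500 UMIs and 110 without barcodes above 10000 UMIs. The share with an Ighd or Fcer2a UMI was 82.0% in pIVCL and 89.8% in Control. In the same order it was 61.4% and 78.7% at 2 UMIs or more. For Ighd alone it was 68.1% and 81.1%, and for Fcer2a alone 51.7% and 70.1%. It was 44.9% and 41.7% at 500 UMIs, 65.3% and 63.7% at 1000 UMIs, and 86.1% and 90.9% over 1000 to 3000 UMIs. Among genes past the fold, signs reversed for Dcn with no exclusion genes (0.58) and for Dcn (0.13), Ecm1 (0.067), Igha (0.48) and Jchain (0.15) without marker-carrying barcodes. Over 1000 to 3000 UMIs they reversed for Igha (0.76), Jchain (0.10), Ly6c2 (0.23), Lyz2 (0.93) and S100a6 (-0.27), and without barcodes above 10000 UMIs for Igha (0.52), Jchain (0.17) and Ly6c2 (0.23). Fos, not past the fold, went from -0.31 to 0.13 without barcodes above 10000 UMIs. The mean of both libraries' Ighd or Fcer2a log2 ratios reversed over 1000 to 3000 UMIs for Ahnak (0.90), Igkc (0.17), Lgals1 (0.11) and Vim (0.86), and for Igkc without marker-carrying barcodes (0.022) and without barcodes above 10000 UMIs (0.090). That window held 3 Control barcodes without the pair. The cause was not tested. One library per group and the 13 Control barcodes without Ighd or Fcer2a limit the precision.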
